A study of Sus scrofa domesticus with 4 samples.

Results

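IL1A, IL6, CXCL8 and AMCF-II encode 4 secreted inflammatory proteins: interleukin 1 alpha, interleukin 6 and a pair of chemokines that attract neutrophils. They were grouped because they gave some of the lowest treated over control ratios among named genes in porcine anterior pituitary cells cultured with adiponectin. Every probe whose RefSeq accession belongs to 1 of the 4 genes was used, which gave 6 of 43603 probes on the array. IL6 has 3 of these probes and each of the other genes has 1. The 4 genes are among 2459 that could be named on the array, where 5578 probes carried a name and 38025 did not. All 6 probes were well above background in both channels on 4 of 4 arrays, and 0 of their spots were flagged as outliers.

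The cells were primary cultures from the anterior lobes of mature Large White × Polish Landrace gilts aged 7 to 8 months. The animals were between days 10 and 12 of the cycle, mid-luteal by the protocol, although a label speaks of pregnancy on these days. After 48 h of preculture, the cells spent 24 h without serum. Treated cultures received recombinant human adiponectin, a hormone of fat tissue, at 10 µg/ml, control cultures received none, and the medium of both held the peptidase inhibitor bacitracin. Each of 4 arrays compared treated with control RNA in 2 colours. By the channel labels, arrays 1 and 3 carried treated RNA as Cy5, the red dye, whereas arrays 2 and 4 carried it as Cy3, the green dye. The wording of the labelling protocol instead reads as treated RNA in Cy5 throughout. Which animal supplied which array is not given in the labels, so the spread between arrays may be technical in part. The adiponectin was human and the cells porcine, and the cultures held the mixed cell types of the lobe.

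IL-1 alpha is made as a precursor and acts through the type 1 IL-1 receptor, which signals to the transcription factor NF-kB. IL-6 binds its receptor together with the shared subunit gp130 and activates STAT3. CXCL8 (interleukin 8, called AMCF-I in pigs) and AMCF-II are CXC chemokines that draw neutrophils through the receptors CXCR1 and CXCR2. NF-kB is a common activator of all these genes, and IL-1 is among the signals that induce the others. In the pituitary, IL-6 is known as a product of folliculostellate cells, the non-endocrine supporting cells of the lobe.

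The arrays held 43803 spots each, of which 939 to 1350 lay on an uneven local background, 21 to 40 were feature outliers and 0 were saturated. Between 25089 and 29734 spots were well above background in the treated channel, and between 27302 and 27695 in the control channel. Tests used 25912 probes, which covered 1956 named genes and all 6 cytokine probes. Over all tested probes the median log2 ratio was 0.00124 and the range was -0.51 to 0.63. With limma's moderated test and Benjamini-Hochberg adjustment, 0 probes passed an adjusted p of 0.05 for the treatment (percent called: 0), while 718 (2.77%) had an unadjusted p under 0.05, of which 447 (1.73% of all) had lower signal in treated cells. The cytokine probes were chosen by this ratio, so it is described for them without a test.

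The 4 cytokine genes lay between -0.22 and -0.36 on the log2 scale, with ratios below 0 on most arrays. AMCF-II was lowest, at 0.778-fold of control, followed by IL1A at 0.831-fold, CXCL8 at 0.834-fold and IL6 at 0.860-fold. Counted from the lowest of 1956 named genes, AMCF-II ranked 2, IL1A 5, CXCL8 6 and IL6 12. Among all 25912 probes they ranked 10, 67, 80 and 196, but 10869, 22571, 22940 and 19252 if the treated RNA was Cy5 on every array. Just outside this group, PTGS2, the inducible prostaglandin synthase, ranked 11 at -0.22, and the chemokine CXCL2 ranked 13 at -0.21. All 6 cytokine probes had a fitted ratio below 0, as did 49.3% of all tested probes (34.1% after median centring), and 3 of 6 were below 0 on every array, as were 2.94% of probes with values on all arrays. The rule used this contrast, so these counts describe the choice.

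IL1A encodes interleukin 1 alpha. Its log2 ratios of treated over control on arrays 1 to 4 were -0.01, -0.32, -0.20 and -0.55. All were below 0, and array 1 was close to no difference. The fitted ratio was -0.27 ± 0.07 (SE, n = 4 arrays), against an SD between arrays of 0.22.

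In control cells the log2 level of IL1A on arrays 1 to 4 was 12.98, 13.48, 12.12 and 12.00. In treated cells it was 12.97, 13.16, 11.92 and 11.45. Treated and control levels overlapped, because arrays 1 and 2 were high in both and arrays 3 and 4 were low in both. The unnormalised control foreground intensity of 3705 to 13086 stood far above the local background of the cytokine spots, which was 22 to 49.

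IL6 encodes interleukin 6, and its 3 probes let the same transcript be read more than once on each array. The brightest, A_72_P177826, stands for the gene. Its log2 ratios on arrays 1 to 4 were -0.07, -0.25, -0.18 and -0.38, all below 0. The fitted ratio was -0.22 ± 0.07 (SE, n = 4), with an SD between arrays of 0.13.

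The control log2 level of this IL6 probe on arrays 1 to 4 was 10.46, 11.54, 9.93 and 9.49, and the treated level was 10.39, 11.30, 9.76 and 9.12. As for IL1A, the 2 groups overlapped and array 2 was highest in both.

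The other IL6 probes gave smaller fitted ratios with the same sign. A_72_P537633 had log2 ratios of 0.08, -0.31, -0.13 and -0.32 and a fitted ratio of -0.17 ± 0.07 (SE, n = 4). A_72_P680394 had 0.36, -0.59, 0.09 and -0.46 and a fitted ratio of -0.15 ± 0.07 (SE, n = 4). The last probe was above 0 on the arrays with treated RNA in Cy5 and below 0 on the others, and its SD between arrays of 0.45 was the highest of the 6. The mean of the fitted ratios of the IL6 probes was -0.18. The 3 probes share their RNA and arrays and are not replicates.

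CXCL8 encodes interleukin 8, the neutrophil chemokine. Its log2 ratios on arrays 1 to 4 were 0.07, -0.22, -0.25 and -0.65. Array 1 lay above 0 and array 4 was lowest. The fitted ratio was -0.26 ± 0.09 (SE, n = 4), with an SD between arrays of 0.30. Without array 4 it was -0.15, and with median centring of each array in place of loess it was -0.16.

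The control log2 level of CXCL8 on arrays 1 to 4 was 16.41, 16.98, 15.45 and 15.07, and the treated level was 16.48, 16.76, 15.20 and 14.41. The groups overlapped. Its unnormalised control intensity ran from 33882 to 151146 and 0 spots of the probe were marked as saturated.

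AMCF-II encodes alveolar macrophage chemotactic factor 2, and RefSeq lists CXCL6 as a synonym of the pig gene. Its log2 ratios on arrays 1 to 4 were -0.35, -0.39, -0.43 and -0.28. These 4 values lay closer together than those of any other cytokine probe, with an SD of 0.06. The fitted ratio was -0.36 ± 0.06 (SE, n = 4), and leaving out any 1 array moved it only between -0.39 and -0.33.

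The control log2 level of AMCF-II on arrays 1 to 4 was 12.87, 13.29, 12.96 and 12.12, and the treated level was 12.53, 12.90, 12.54 and 11.84. The treated level was below the control level on each array, yet the groups overlapped. No cytokine probe had treated and control levels that did not overlap over the 4 arrays, against 0.224% of probes. In bulk RNA from mixed cells, fewer cells of a type and less RNA per cell cannot be told apart.

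**Figure D1:**
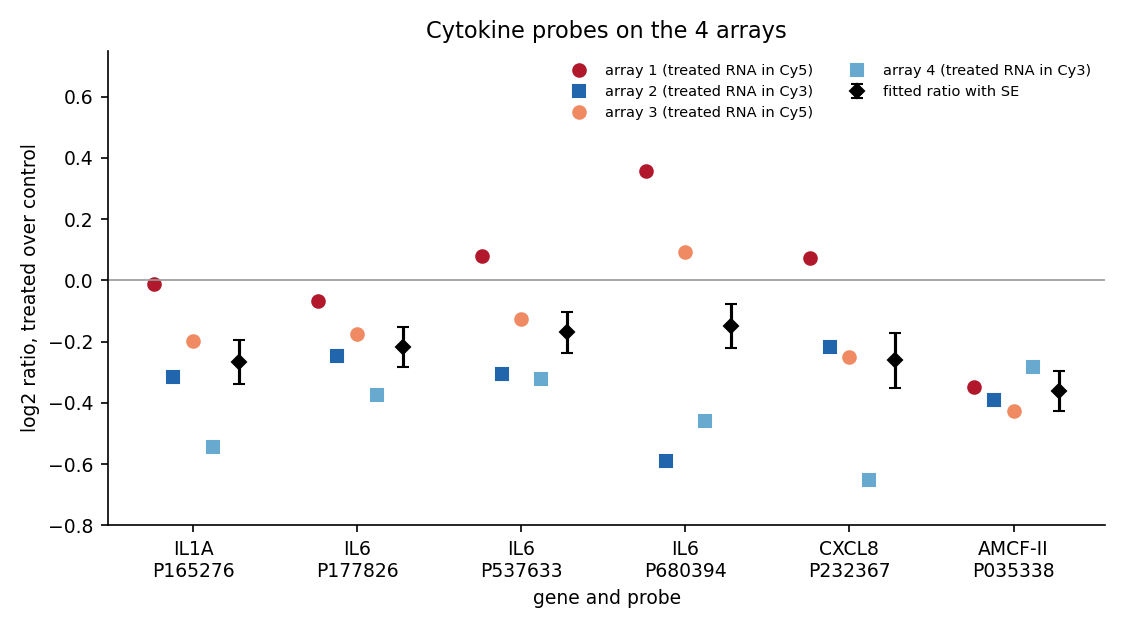
Log2 ratio of treated over control (vertical axis) for the 6 cytokine probes (horizontal axis), with circles for arrays with treated RNA in Cy5, squares for treated RNA in Cy3, and a diamond with bars for the fitted ratio and its SE. The 4 AMCF-II values sit between -0.43 and -0.28, while the IL6 probe A_72_P680394 runs from -0.59 to 0.36.

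Dye was measured by a second term of the fit, the part of each ratio that follows red over green rather than treatment. This term was not used to choose the genes. For A_72_P680394 of IL6 it was 0.37 on the log2 scale, a 1.30-fold higher red signal (limma, adjusted p = 0.0268 over all probes). It was the only 1 of 6 cytokine probes past an adjusted p of 0.05, where the percent called over all probes was 6.21 in either direction and 1.92 with red above green. The call was lost in limma with the scanner's own log ratio (adjusted p = 0.305), with median centring (0.33) and with the background model fitted on all spots (0.0878), and without array 1 (0.286) or array 3 (0.103). The term itself was 0.23, 0.43, 0.27, 0.31 and 0.44 in these settings, so it kept its sign in each. The call held without array 2 (term 0.34) or array 4 (0.41).

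The dye term of the other probes did not pass. In limma it was 0.16 for IL1A (adjusted p = 0.198), 0.095 for A_72_P177826 of IL6 (0.395), 0.15 for A_72_P537633 of IL6 (0.215) and 0.17 for CXCL8 (0.272). It was -0.025 for AMCF-II (adjusted p = 0.842). AMCF-II was thus the gene whose ratios were nearest alike in both dye orientations, with a mean of -0.39 with treated RNA in Cy5 and -0.34 with treated RNA in Cy3. For IL1A the same means were -0.11 and -0.43, and for CXCL8 they were -0.09 and -0.43. Without array 2 the dye term did pass for CXCL8 (0.28) and IL1A (0.22).

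With the fitted dye term removed, each array's log2 ratio was below 0 for all 6 probes, as it was for 8.42% of all probes. The genes were chosen by the fitted ratio, so this count describes the choice. Removing the dye term makes arrays 1 and 3 average to that ratio, and likewise arrays 2 and 4. The values within each of these pairs therefore mirror each other and are not independent. On arrays 1 to 4, IL1A then stood at -0.17, -0.15, -0.36 and -0.38, and A_72_P177826 of IL6 at -0.16, -0.15, -0.27 and -0.28. Both genes were lower on arrays 3 and 4 than on arrays 1 and 2. CXCL8 showed the same split more widely, at -0.10, -0.04, -0.42 and -0.48. AMCF-II did not, at -0.32, -0.42, -0.40 and -0.31. With Cy5 as the treated dye throughout, the fitted ratio becomes 0.16 for IL1A, 0.095 for IL6, 0.17 for CXCL8 and -0.025 for AMCF-II. The signs for IL1A, IL6 and CXCL8 thus rest on the channel labels, as does the size for AMCF-II. The deposited log2 ratios follow these labels, within 0.01 for 100% of 43553 probes on each array. Whether the labels are right was not tested.

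**Figure D2:**
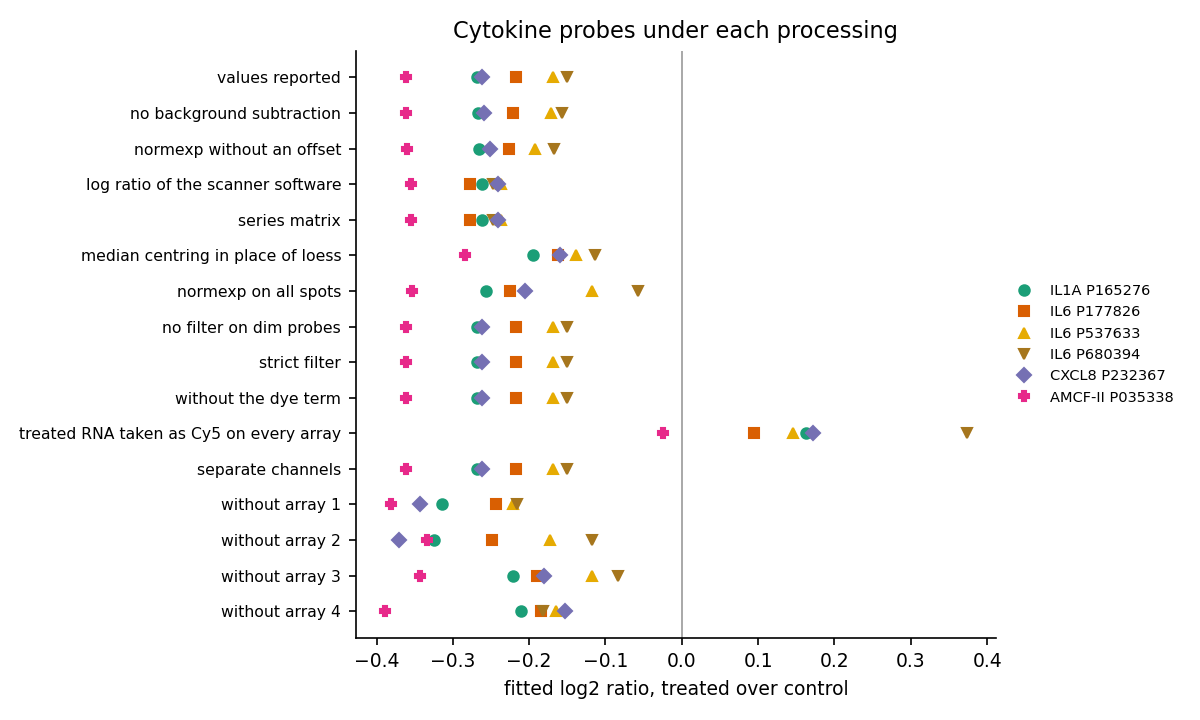
Fitted log2 ratio of treated over control (horizontal axis) for the 6 cytokine probes under each processing and without each array (vertical axis). All markers lie below 0 except in the line that takes the treated RNA as Cy5 on every array, where AMCF-II alone stays below 0, at -0.025.

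From the highest to the lowest array, the levels of these genes spanned more than their fitted treatment ratio. A span is a maximum minus a minimum and the ratio is a mean, so the measures are unlike. For AMCF-II the excess rested on array 4, without which the span was 0.39 and the fitted ratio -0.39 on the log2 scale. The level of a probe on an array was the mean of its treated and control log2 values after quantile scaling. This mean was not used to choose the genes, and its pattern over arrays was noticed after the values were seen. CXCL8 spanned 2.13 on the log2 scale, or 4.37-fold, from its highest to its lowest array. IL6 spanned 4.33-fold by its brightest probe, IL1A 3.02-fold and AMCF-II 2.16-fold. Over all probes with values on 4 arrays the median span was 1.27-fold.

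By the SD of its level over arrays, CXCL8 lay at percentile 99.7 of 25037 probes. The IL6 probes lay at percentiles 99.1 to 99.5, IL1A at 99.1 and AMCF-II at 96.0. Relative to the fitted treatment ratio on the log2 scale, the span between arrays was 5.95 times as large for IL1A, 9.76 times for IL6 and 8.13 times for CXCL8. For AMCF-II, with the largest ratio and the narrowest span, it was 3.08 times.

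The 4 genes followed nearly 1 order. Set against its own mean, IL1A stood at 0.47, 0.81, -0.49 and -0.79 on arrays 1 to 4, and IL6 at 0.17, 1.17, -0.40 and -0.94. CXCL8 stood at 0.60, 1.02, -0.52 and -1.11. AMCF-II stood at 0.07, 0.46, 0.12 and -0.65.

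Thus all 6 probes were highest on array 2 and lowest on array 4, an order that 15.3% of all probes shared. Array 1 was second and array 3 followed for 5 of 6 probes, against 11.1% of all probes, and AMCF-II had these middle arrays exchanged. The 5 probes kept this order within control cells and within treated cells, as did 2.65% of all probes. The orders were the same after median scaling and in the scanner's processed signals. Without array 2 the span of IL6 was 1.12 on the log2 scale, and without array 4 that of AMCF-II was 0.39. Each array holds 1 pair of cultures and 1 hybridisation on a shared slide, so culture, animal and hybridisation cannot be told apart.

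**Figure D3:**
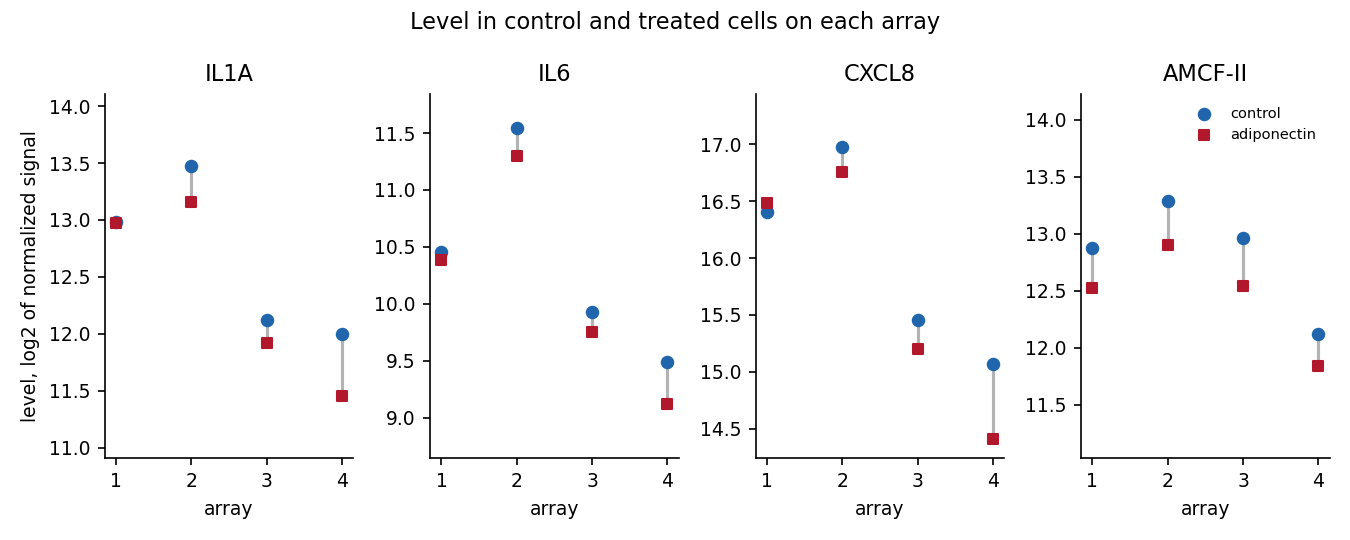
Log2 of the normalized signal (vertical axis) in control cells (circles) and adiponectin-treated cells (squares) on each array (horizontal axis), for IL1A, the brightest probe of IL6, CXCL8 and AMCF-II, with a line joining the pair of an array. Each panel spans the same height, and the step from array 2 to array 4 exceeds the step from control to treated in every panel.

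**Figure D4:**
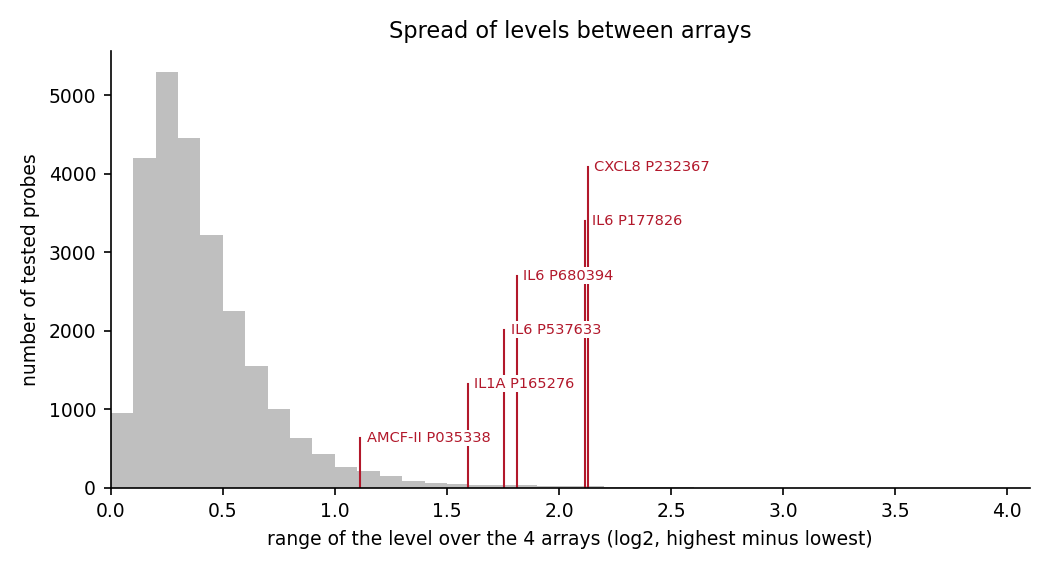
Number of tested probes (vertical axis) by the range of their level over the 4 arrays on the log2 scale (horizontal axis), with vertical lines at the 6 cytokine probes whose heights carry no value. AMCF-II lies at 1.11 and CXCL8 at 2.13, against a median of 0.34 over all probes.

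Other genes of the same pathways were read from lists. In these lists 0 genes passed an adjusted p of 0.05 in limma, and over all 1952 other named genes tested 903 were below and 1049 above 0, with a median of 0.006 and 37 at an unadjusted p under 0.05. Of the IL-1 family and its receptors, 2 genes were tested, IL1B, the secreted sister cytokine of IL1A, at -0.02 ± 0.08 (SE) and IL18 at 0.03 ± 0.07. Their own levels over arrays differed from those of IL1A, since IL1B was highest on array 1 and lowest on array 2. The receptors and antagonist IL1R1, IL1R2, IL1RAP and IL1RN were not analysed here.

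IL-1 and Toll-like receptor signalling had 12 genes tested, 4 below and 8 above 0, with a median of 0.019. The lowest was LBP, a carrier of bacterial lipopolysaccharide, at -0.07 ± 0.07 (SE), and the highest was TRAF6, an adaptor ligase of the pathway, at 0.06 ± 0.10.

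On the IL-6 side, 5 of 12 genes were below and 7 above 0, with a median of 0.001, and 1 had an unadjusted p under 0.05. The receptor IL6R was at 0.00 ± 0.07 (SE) and IL6ST, which encodes gp130, at 0.01 ± 0.07. SOCS3, the feedback inhibitor induced by STAT3, was at -0.05 ± 0.06. The highest was SOCS2, an inhibitor of growth hormone signalling, at 0.19 ± 0.07.

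Of the CXC chemokines and their receptors, 6 of 8 tested genes were below 0, with a median of -0.065, and 1 had an unadjusted p under 0.05. Median centring put this median at -0.01, and without array 2 it was -0.15. Leaving out array 4 put it at 0.08, but over 7 genes, since CXCL2 had no value on array 2 and dropped out. In the fit of separate channels, which also left 7 genes, the median over 4 arrays was -0.03. The lowest was CXCL2, another neutrophil chemokine, at -0.21 ± 0.08 (SE). It was measured on 3 arrays, at -0.54, -0.63 and 0.17, and its other probe gave -0.22. The highest was CXCL12, which holds cells in their niche through CXCR4, at 0.01 ± 0.07. The receptors CXCR1 and CXCR2 were not analysed here.

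CXCL8 and AMCF-II are next to each other in the order of RefSeq protein-coding genes, with PPBP, a platelet chemokine, after AMCF-II and CXCL2 farther along the same cluster. The fitted ratio was -0.26 for CXCL8, -0.36 for AMCF-II and -0.21 for CXCL2, while PPBP was at 0.00 ± 0.07 (SE).

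The NF-kB subunits, kinases and inhibitors had 4 of 8 genes below 0 and a median of -0.002. Leaving out 1 array moved this to 7 of 8 below 0 without array 1 (median -0.07) and 8 of 8 without array 4 (-0.04), but 3 of 8 without array 2 (0.04) or array 3 (0.07). NFKB1 was at -0.05 ± 0.08 (SE), RELA, the main activating subunit, at 0.03 ± 0.07 and NFKBIA, the inhibitor that NF-kB itself induces, at 0.04 ± 0.11. The lowest was the kinase TBK1 at -0.14 ± 0.08 and the highest TNIP1, a partner of the inhibitor A20, at 0.08 ± 0.09. A20 itself (TNFAIP3) was not analysed here.

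Other inflammatory targets of NF-kB had 17 of 26 tested genes below 0, with a median of -0.034, but 8 of 26 after median centring, with a median of 0.03. PTGS2, at -0.22 ± 0.08 (SE), and CSF3, granulocyte colony-stimulating factor, at -0.17 ± 0.07, were the 2 with an unadjusted p under 0.05. On arrays 1 to 4 PTGS2 had log2 ratios of 0.21, -0.36, -0.13 and -0.62, the same order over arrays as IL1A, with array 1 above 0. CCL2, a monocyte chemokine, was at -0.04 ± 0.07, and the complement protein C3 was highest at 0.14 ± 0.07. Were Cy5 the treated dye throughout, the numbers below 0 would be 14 of 26 here, 1 of 8 for the NF-kB subunits and inhibitors, 7 of 8 for the CXC list, 5 of 12 on the IL-6 side and 7 of 12 for IL-1 and Toll-like receptor signalling. Of 3 factors that bind cytokine promoters, JUN was lowest at -0.003 and NR3C1, the glucocorticoid receptor, highest at 0.08 ± 0.07.

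**Figure D5:**
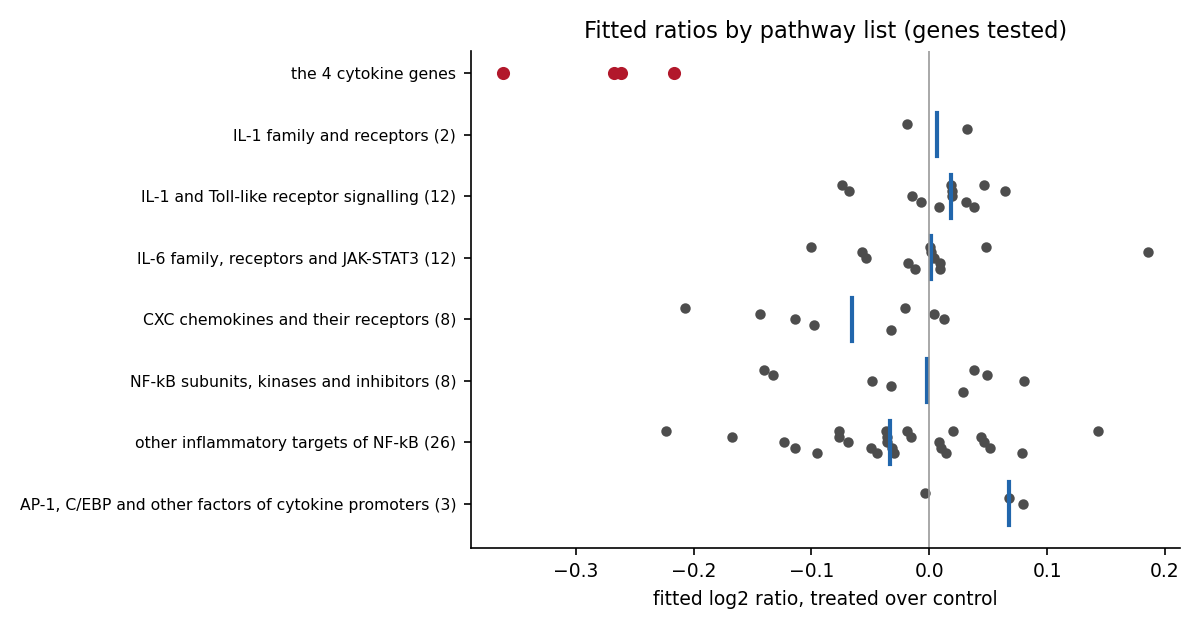
Fitted log2 ratio of treated over control (horizontal axis) for the 4 cytokine genes and for the tested genes of each pathway list (vertical axis, number of genes in parentheses), with points for genes and a vertical bar for each list's median. The cytokine genes, chosen by this ratio, lie between -0.36 and -0.22, and the list medians lie between -0.065 and 0.067.

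The order of levels over arrays was shared by some genes of these lists. The order array 2, 1, 3, 4 was found in 6 of 25 other NF-kB targets, in 3 of 8 NF-kB subunits and inhibitors, and in 235 of 1844 named genes (12.7%). It was also found in 2 of 3 factors of cytokine promoters, 2 of 11 genes of IL-1 and Toll-like receptor signalling and 1 of 11 on the IL-6 side. It was found in 0 of 7 genes of the CXC list and 0 of 2 of the IL-1 family. The NF-kB targets were PTGS2, CCL20, ICAM1, VCAM1, IRF1 and PLAU. The NF-kB subunits and inhibitors were NFKB1, NFKBIA and TNIP1, and all of these were named after their values were seen. CCL20, a chemokine of T and dendritic cells, spanned 3.73-fold, and the adhesion genes VCAM1 and ICAM1 spanned 4.06-fold and 2.56-fold, next to 4.37-fold for CXCL8. PTGS2 spanned 1.85-fold and NFKBIA 1.79-fold.

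The genes nearest to each cytokine gene over the 4 arrays were ranked by the root mean square difference of log2 ratios with the dye term removed, among 1847 named genes. This likeness uses the ratios that chose the genes and is given as a description. Nearest to IL1A were IL6 (0.0690), PTGS2 (0.0690) and NUP153 (0.0806), a nuclear pore protein. Nearest to IL6 were CSF3 (0.0531), EIF4A1 (0.0538), a helicase of translation, and NUP153 (0.0549).

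CXCL8 was nearest to PTGS2 (0.0728), IL1A (0.0868) and HIF1A (0.0932), the oxygen-sensing transcription factor. AMCF-II had no neighbour as close, with IL1A at 0.157, IL6 at 0.168 and SLC7A2, a transporter of basic amino acids, at 0.174. Between the chemokines CXCL8 and AMCF-II the difference was 0.233, the largest of the 6 pairs among the cytokine genes.

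Markers of the cell types in the lobe were read beside the cytokine genes. Counts are of markers that could be named on the array, so most lists are incomplete. The lists held 17 endocrine, 17 macrophage and monocyte, 11 folliculostellate, 11 endothelial, 8 neutrophil and 12 lymphocyte markers. The endocrine markers of the labelled tissue were well above background in 15 of 15 cases. Of these, 14 were tested and 10 were below 0 with a median ratio of -0.065, but 4 after median centring, with a median of 0.02. Of 9 macrophage and monocyte markers 7 were tested, with a median ratio of 0.006 and a summed normalized signal of 1134 to 1743 in control and 1237 to 1805 in treated cells. The macrophage factor SPI1 was not well above background. Their median level, set against each gene's own mean, was -0.05, -0.40, -0.02 and 0.21 on arrays 1 to 4, lowest where the cytokine genes were highest.

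Folliculostellate markers, 4 of 4 tested, had a median ratio of -0.04 (0.03 after median centring) and sums of 51377 to 70613 in control and 49380 to 69137 in treated cells. Their median levels were -0.15, -0.15, 0.11 and 0.09. Endothelial markers, 5 of 5 tested, had a median ratio of -0.006 (0.01 after median centring). Their median levels were 0.74, 0.17, -0.40 and -0.53, highest on array 1 and lowest on array 4. Their sums were 854 to 2618 in control and 843 to 2272 in treated cells. The endothelial marker SELP, an adhesion receptor for leukocytes, was at -0.23 ± 0.07 (SE), with log2 ratios of -0.36, -0.03, -0.28 and -0.24 on arrays 1 to 4 and an adjusted p of 1.00 in limma (unadjusted p = 0.0101). Its level spanned 6.93-fold, in the order array 1, 2, 3, 4. It was singled out after its values were seen, and its part in the cytokine values was not tested.

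Of the neutrophil markers, 3 of 3 were tested and 2, S100A8 and S100A9, had levels on all arrays. The median levels of these 2 were -0.47, -1.07, 0.88 and 0.66, low on arrays 1 and 2. The list had a median ratio of 0.010, and the 2 genes had sums of 10108 to 42189 in control and 11888 to 38340 in treated cells. Were Cy5 the treated dye throughout, the median ratio would be -0.16 for the macrophage list (6 of 7 below 0), -0.25 for the neutrophil list, -0.09 for the endothelial list, 0.04 for the folliculostellate list and 0.05 for the endocrine list (5 of 14 below 0). Of 8 lymphocyte markers 3 were tested, and CD3G and CD4 were not well above background. The part of cell mixture in the levels of the cytokine genes was not tested.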

How the data were processed

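Per the file headers, Agilent Feature Extraction 10.7.3.1 quantified array design 026440. The deposited scanner files give linear intensity per spot and channel and the scanner's log10 ratio (red to green). Deposited log2 ratios in the series matrix matched the scanner's processed signals within 0.01, with treated over control set by the channel labels. All 4 arrays lay on 1 slide, per the file headers.

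From these intensity values, median foreground and local background were corrected with normexp (offset 50, fitted without spots of uneven background) and normalized by loess (span 0.3) within arrays, in limma 3.58.1 under R 4.3.3. The plan named the mean foreground, and the median in the files was used. Flagged spots were left out. A probe was tested if well above background in the treated or the control channel on at least 3 arrays, with values on at least 3 arrays. The fit had a treatment and a dye term, with 2 residual degrees of freedom and 6.37 from the prior, and p-values were adjusted over all tested probes. The p-values and SEs use the spread of a probe between these 4 arrays, drawn toward the spread typical of all tested probes. The number of arrays limits the precision. Levels were quantile scaled between arrays.

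Probes were named by accession through RefSeq's pig annotation (Sscrofa11.1), and the brightest tested probe stood for a gene. Genes were named in the text by a rule: the 4 genes themselves, set pathway genes, the extremes of each list and the 3 nearest genes. An item that the rule would name is not reported here. The genes and lists were chosen with earlier results of these data known. The fit was tested on simulated data whose nonzero treatment effects were all larger than the cytokine ratios. Detection at the size of those ratios was not tested. The alternatives were other background corrections, normalizations, filters, dye readings and single arrays left out.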

Additional observations from a re-analysis of the deposited data

How the results depend on the processing

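Over 11 settings that kept 4 arrays and the channel labels, all 6 cytokine probes stayed below 0, with IL1A between -0.27 and -0.20, IL6 between -0.28 and -0.16, CXCL8 between -0.26 and -0.16 and AMCF-II between -0.36 and -0.28, the last value with median centring. The weakest was A_72_P680394 of IL6 at -0.06, with normexp on all spots. For these probes the filters, the fit without a dye term and the fit of separate channels return the reported value by construction. The series matrix repeats the scanner's log ratio. The genes were chosen by this ratio, so its shared sign is a description. Taking the treated RNA as Cy5 on every array gave 0.16 for IL1A, 0.095 for IL6, 0.17 for CXCL8 and -0.025 for AMCF-II. In limma 2331 probes then passed an adjusted p of 0.05. That fit holds no dye term, so treatment and dye cannot be told apart in its count. Without 1 array, IL1A ranged from -0.33 to -0.21, IL6 from -0.25 to -0.19, CXCL8 from -0.37 to -0.15 and AMCF-II from -0.39 to -0.33. The limma count for the treatment was then 0 to 832, with array 1 left out giving 0, array 2 giving 725, array 3 giving 1 and array 4 giving 832, against 0 (718 unadjusted) with all arrays. The count for the dye term, 1608 with all arrays, was 32 with the scanner's log ratio, 0 with median centring (limma, adjusted) and 845 with normexp on all spots, and 56 to 6152 without 1 array. Level spans without 1 array were 1.25 to 1.59 for IL1A, 1.12 to 2.12 for IL6, 1.54 to 2.13 for CXCL8 and 0.39 to 1.11 for AMCF-II. The cause of these shifts was not tested. With 2 residual degrees of freedom, differences of the size seen here had SEs of 0.06 to 0.09.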

Other observations

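Some inflammatory genes differed between arrays in other orders than the 4 cytokine genes. The order of IL1A, IL6 and CXCL8 was shared by 6 of 25 NF-kB targets, 0 of 7 genes of the CXC list and 12.7% of the other named genes. The complement gene C3 spanned 8.94-fold from its highest level on array 3 to its lowest on array 2, opposite to the cytokine genes on array 2. IL1B spanned 2.51-fold, with its lowest level on array 2. These genes were picked after their values were seen. Over the 25 inflammatory NF-kB targets with values on every array, the median span was 2.56-fold, against 1.31-fold over the other named genes. Of 43 sets of 4 array values checked for the cytokine probes and the named genes, 0 had 1 array far from the rest by Dixon's test. Chance gives about 2.15 for independent sets. Many of these sets share a probe or a gene, and the ratios still held the dye effect, so the count does not show that no array stands apart.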
